A study of Mus musculus with 6 samples.

Results

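The Sertoli cell identity and maturation genes followed here are Sox9, Sox8, Wt1, Gata4, Gata1, Amh, Fshr, Inha and Inhbb. They were taken by name from a table of 49671 genes by matching each Ensembl identifier to its GENCODE symbol, and all 9 were found. All 9 also passed the filter on low counts, which left 18040 genes. The tissue was the whole testis of C57BL/6J mice aged 12 days, when the first wave of germ cells is in early meiosis. One group was homozygous for a loss of Ankrd31 (Ankrd31-/-, "knockout" below) and the other was wild type (Ankrd31+/+), with 3 libraries each. Ankrd31 encodes an ankyrin-repeat protein of the meiotic machinery that makes DNA double-strand breaks. The sources used here do not say how the allele was made, and the labels do not say whether littermates were used.

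Sertoli cells are the somatic cells inside the seminiferous tubules that surround and feed the germ cells. In the embryo, SOX9 and its relative SOX8 fix the Sertoli fate, and the factors WT1 and GATA4 act before and beside them. After birth these cells divide under follicle-stimulating hormone (FSH) and then mature: they stop dividing, seal the blood-testis barrier and reduce anti-Müllerian hormone (AMH). They also secrete inhibin B, a dimer of the Inha and Inhbb products that lowers FSH release from the pituitary.

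The libraries held 21014060 to 22706296 counts. Ankrd31 itself stood at 37.3 ± 3.89 CPM in the knockout libraries and 66.8 ± 16.6 CPM in the wild-type libraries (SD, n = 3 each), where CPM is the counts-per-million value after TMM scaling. These counts are summed over all exons of the gene, including any that the allele leaves intact, so the level is only a partial check of the labels. Its unadjusted p was 0.00154 and its edgeR adjusted p was 1, or 0.00505 with the replicate number as a block. Wild-type replicate 3 stood apart by genes of the epididymis and rete, the ducts next to the testis. The 10 markers of these ducts summed to 142 CPM there, against 70.3 to 85.0 CPM in the knockout libraries and 67.1 and 78.4 CPM in the other wild-type libraries. In whole tissue, fewer Sertoli cells and less RNA per Sertoli cell cannot be told apart.

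On build mm10, as the table gives the positions, 4 of the genes lie on the plus strand: Sox9 (ENSMUSG00000000567) spans chr11:112782224-112787760, Wt1 (ENSMUSG00000016458) spans chr2:105126529-105173616, Amh (ENSMUSG00000035262) spans chr10:80805248-80807648 and Inha (ENSMUSG00000032968) spans chr1:75507077-75510366. The other 5 lie on the minus strand: Sox8 (ENSMUSG00000024176) spans chr17:25565892-25570686, Gata4 (ENSMUSG00000021944) spans chr14:63198922-63271692, Gata1 (ENSMUSG00000031162) spans chrX:7959260-7978071, Fshr (ENSMUSG00000032937) spans chr17:88985170-89200612 and Inhbb (ENSMUSG00000037035) spans chr1:119415465-119422248.

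No change with the loss of Ankrd31 was detected for any of the 9 genes. In edgeR's quasi-likelihood test 0 of 9 passed at an adjusted p under 0.05, where 0 of 18040 tested genes (0.0%) did. At an unadjusted p under 0.05 the count was again 0 of 9, against 2.07% of all genes. DESeq2 and limma voom also called 0 of the 9, against 0.0111% and 0.0% of all genes. At an unadjusted p under 0.05, DESeq2 had 0 of the 9, against 1.34% of all genes, and limma voom 0 of the 9, against 2.07%. The groups overlapped for all 9, while they did not overlap for 6.59% of all genes (3.09% higher and 3.5% lower in the knockout). The point estimates were higher in the knockout for 3 of the 9 genes and lower for 6, with a median log2 fold change of -0.056 against -0.005 over all tested genes. Of all 18040 tested genes, 8618 were higher and 9422 lower. For each of the 9, more of the spread between libraries went with replicate number (2 degrees of freedom) than with genotype (1 degree of freedom). The median shares over all tested genes had the same order, 57.3% for replicate number and 9.63% for genotype.

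**Figure D1:**
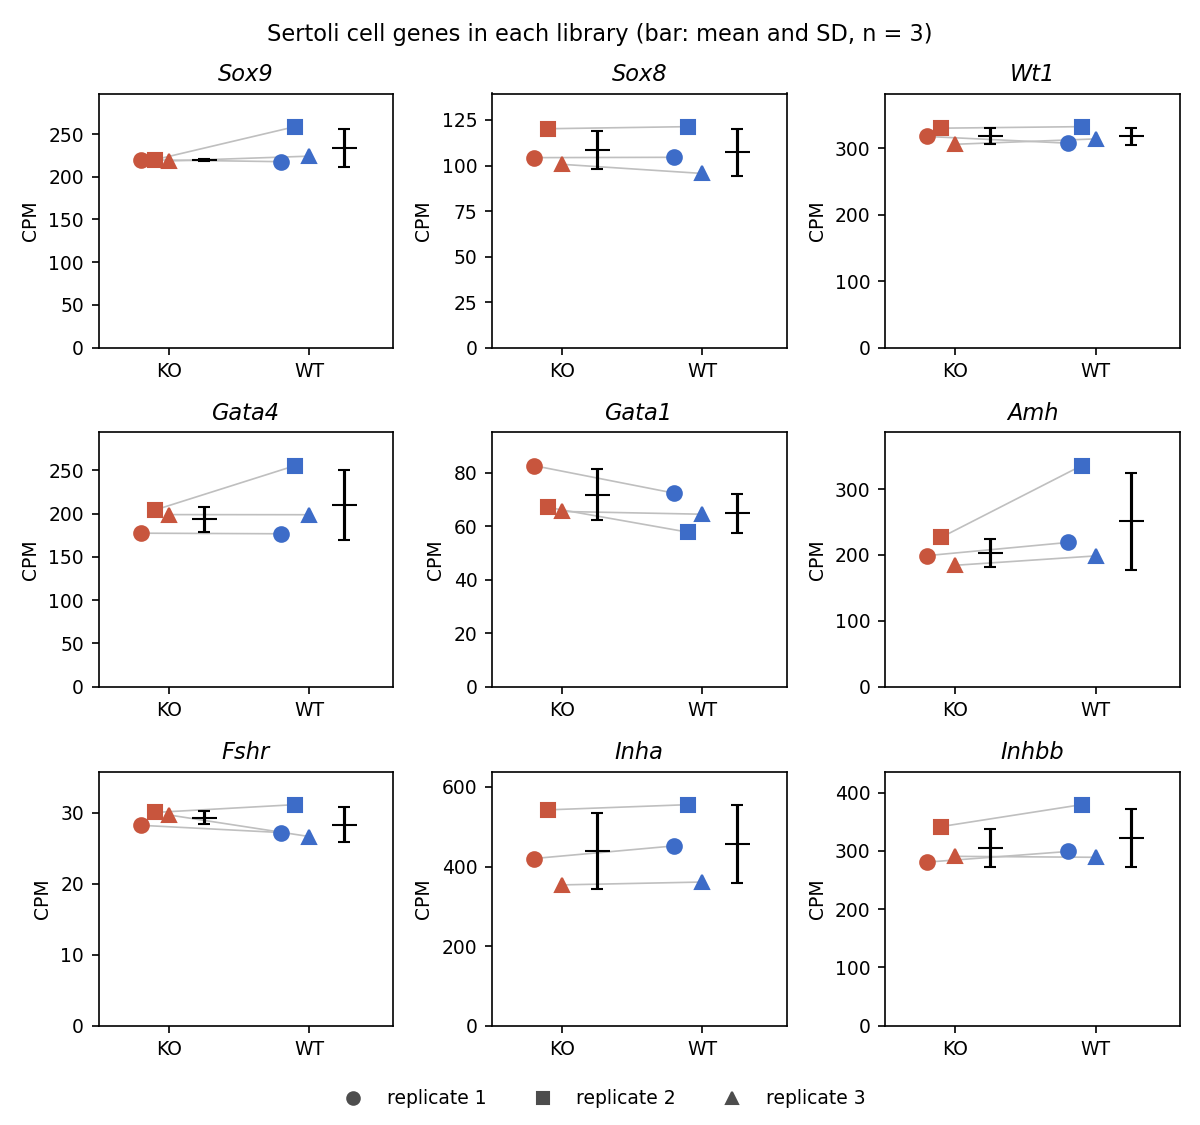
Level of each of the 9 genes in CPM (vertical axes from 0) in the knockout (KO, red) and wild-type (WT, blue) libraries, with the mean and SD of 3 libraries beside each group and grey lines joining libraries of the same replicate number. Squares, replicate 2, are the highest wild-type point for 8 genes and the lowest for Gata1.

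Sox9, the gene of the transcription factor that sets the Sertoli fate, lay at 219.98, 219.92 and 218.46 CPM in knockout replicates 1, 2 and 3, against 217.65, 258.63 and 224.11 CPM in the wild-type replicates. The knockout libraries were almost equal and sat inside the wild-type range, whose top was replicate 2 alone. The log2 fold change was -0.09 ± 0.07 (SE), and its 95% interval allowed 0.84 to 1.05 times the wild-type level. Without wild-type replicate 2 it was -0.009.

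Sox8 encodes a related factor of the same SOX subgroup, which acts beside SOX9 in keeping tubules intact. It stood at 104.32, 120.19 and 100.65 CPM in the knockout replicates and 104.5, 121.33 and 95.63 CPM in the wild-type replicates. Replicate 2 was the high library in each genotype, and the groups lay on top of each other. The log2 fold change was 0.02 ± 0.10, with an interval from 0.868 to 1.18 times the wild-type level, and it turned to -0.042 when libraries were scaled to other Sertoli markers and to between -0.055 and -0.001 without knockout replicate 2 or wild-type replicate 1 or 3. Sox10, the third gene of that subgroup, was low, at 5.99 to 6.91 CPM in the knockout and 6.07 to 8.66 CPM in the wild-type libraries.

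Wt1, a zinc finger gene needed for the Sertoli lineage and for its upkeep, was the steadiest of the 9. It had 317.69, 330.18 and 305.96 CPM in the knockout replicates, against 307.61, 332.47 and 314.06 CPM in the wild-type replicates. The highest library exceeded the lowest by a factor of 1.09, and the means were 318 ± 12.1 CPM in knockout and 318 ± 12.9 CPM in wild type (SD, n = 3 each). The 95% interval allowed 0.909 to 1.10 times the wild-type level, the narrowest of the 9. The antisense gene Wt1os ends 18 bases before Wt1, and 0 genes in the table overlap the span of any of the 9, so reads of an overlapping neighbour do not enter these counts.

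Gata4 and Gata1 encode zinc finger factors that bind the same DNA letters. GATA4 is present in Sertoli cells from the fetal gonad on, also in Leydig cells, while GATA1, known best from red blood cells, appears in Sertoli cells after birth. Gata4 lay at 177.31, 204.03 and 198.77 CPM in the knockout replicates and 176.63, 255.33 and 198.64 CPM in the wild-type replicates. Same-numbered libraries were level in replicates 1 and 3 and parted in replicate 2, where wild type was higher. The log2 fold change was -0.12 ± 0.13, and 0.04 without wild-type replicate 2.

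Gata1 ran the other way. It had 82.64, 67.03 and 65.51 CPM in the knockout replicates, against 72.35, 57.74 and 64.48 CPM in the wild-type replicates. The highest level was in knockout replicate 1 and the lowest in wild-type replicate 2, the library in which the other 8 genes were highest. Knockout exceeded wild type in 3 of 3 same-numbered pairs, by 0.19, 0.21 and 0.02 on the log2 scale, and 13.9% of all genes were higher in every pair. The log2 fold change was 0.15 ± 0.11 without and 0.14 ± 0.05 with the replicate number as a block, and it was 0.032 when knockout replicate 1 was left out and 0.069 when wild-type replicate 2 was. With the block its unadjusted p was 0.0204, the only one of the 9 under 0.05, against 7.48% of all genes (3.59% higher and 3.89% lower in the knockout), and the edgeR adjusted p was 0.588. Blood cells are the other known site of Gata1, and their markers were followed as well. The 11 erythroid markers in the table summed to 63.2, 72.6 and 63.8 CPM in the knockout replicates and 63.7, 98.9 and 62.4 CPM in the wild-type replicates, largely globin RNA. The erythroid factor Klf1 stayed at 0.41 to 0.63 CPM in the knockout and 0.41 to 0.62 CPM in the wild-type libraries. Of 10 mast cell and megakaryocyte markers, Fcer1a and Gp9 had 0 counts in all 6 libraries, and the 10 summed to 9.06 to 13.6 CPM in the knockout and 8.87 to 11.8 CPM in the wild-type libraries. The part of blood cells in the Gata1 level was not tested.

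Amh encodes the hormone that removes the Müllerian ducts in the male fetus, and its decline is the classical sign of Sertoli maturation. It stood at 198.94, 226.7 and 184.27 CPM in the knockout replicates, against 218.87, 335.51 and 198.5 CPM in the wild-type replicates. Knockout was lower in 3 of 3 pairs, with log2 ratios of -0.14, -0.57 and -0.11, and 14.7% of all genes were lower in every pair. The group ranges overlapped all the same, and wild-type replicate 2 stood far above the other 5 libraries. The means were 203 ± 21.5 CPM in knockout and 251 ± 73.9 CPM in wild type (SD, n = 3 each), and the log2 fold change was -0.30 ± 0.21. The 95% interval allowed 0.574 to 1.14 times the wild-type level, the widest reach downwards of the 9. Without wild-type replicate 2 the log2 fold change was -0.037. With the block it was -0.27 ± 0.10, with an unadjusted p of 0.0503 and an edgeR adjusted p of 0.666.

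Fshr, the receptor through which FSH reaches the Sertoli cell, was the lowest of the 9. It lay at 28.23, 30.04 and 29.69 CPM in the knockout replicates and 27.21, 31.14 and 26.65 CPM in the wild-type replicates, from 563 to 708 counts per library. The knockout values fell within the wild-type range. The log2 fold change was 0.05 ± 0.08, with 0.907 to 1.18 times the wild-type level inside the interval, and it was -0.007 when libraries were scaled to other Sertoli markers.

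Inha encodes the inhibin alpha subunit, and Inhbb the beta B subunit, which joins it in inhibin B. Inha had 420.14, 542.45 and 353.85 CPM in the knockout replicates, against 451.87, 555.53 and 361.03 CPM in the wild-type replicates. Each knockout library was slightly below the wild-type library of its number, with log2 ratios of -0.10, -0.03 and -0.03, while replicates of one genotype differed by far more. The log2 fold change was -0.06 ± 0.20, or -0.06 ± 0.04 with the block (edgeR adjusted p = 0.819). Inhbb had 280.67, 341.67 and 290.55 CPM in the knockout replicates and 298.88, 379.26 and 288.92 CPM in the wild-type replicates. Replicate 2 was again the high library in each genotype, and the log2 fold change was -0.08 ± 0.12. Without wild-type replicate 2, Inha was at 0.11 and Inhbb at 0.05, and without knockout replicate 3 Inha was at 0.08.

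**Figure D2:**
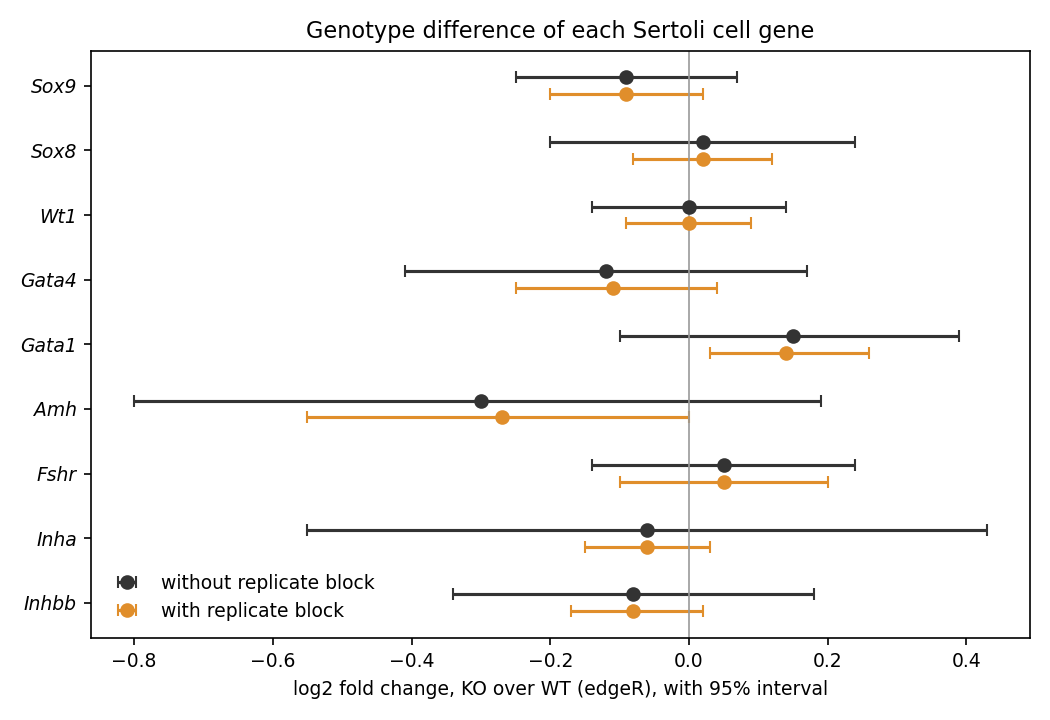
Log2 fold change, knockout over wild type, of the 9 genes in edgeR with its 95% interval, without (black) and with (orange) the replicate number as a block. All intervals without the block span 0, and with the block that of Gata1 (0.03 to 0.26) does not.

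Per unit of gene length the 9 genes covered a wide range. In TPM, the transcripts-per-million value computed over all genes from the counts and exon lengths in the table, Inha led with 935 ± 198 TPM in knockout and 995 ± 200 TPM in wild type. Amh followed at 384 ± 38.4 TPM in knockout and 485 ± 136 TPM in wild type, and Inhbb at 225 ± 23.9 TPM in knockout and 244 ± 34.2 TPM in wild type (SD, n = 3 each). Sox9 had 167 ± 1.25 TPM in knockout and 182 ± 15.0 TPM in wild type. Gata4 had 156 ± 12.4 TPM in knockout and 173 ± 31.4 TPM in wild type, and Wt1 161 ± 5.03 TPM in knockout and 165 ± 4.98 TPM in wild type. In wild type these 3 lay within the spread of Gata4. Below them came Sox8 at 109 ± 9.99 TPM in knockout and 111 ± 12.0 TPM in wild type. Gata1 had 92.5 ± 11.4 TPM in knockout and 85.8 ± 10.4 TPM in wild type, and reached the range of Sox8 only in knockout replicate 1 (105.7 TPM). Fshr closed the order at 44.4 ± 1.77 TPM in knockout and 43.9 ± 3.21 TPM in wild type. Inha exceeded 99.7% and Fshr 70.2% of all tested genes in mean TPM, so these Sertoli genes were abundant in this tissue. Foxl2, the factor of the ovarian counterpart cells, had 0 to 4 counts per library.

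Replicate number took a larger share of the spread than genotype for each of the 9. The sum of squares of log2 CPM over the 6 libraries was divided into a part for genotype (1 of 5 degrees of freedom), a part for replicate number (2 of 5) and a remainder. Replicate number took 98.3% for Inha, 97.1% for Sox8, 89.4% for Inhbb, 85.6% for Wt1, 72.5% for Gata1 and 72.1% for Gata4. It took 63.5% for Amh, 61.2% for Fshr and 39.3% for Sox9, and the median over all tested genes was 57.3%. Genotype took the most for Sox9 (23.4%), Amh (22.8%) and Gata1 (20.3%) and under 11% for the other 6, against a median of 9.63% over all genes. These shares are a description and were not tested.

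**Figure D3:**
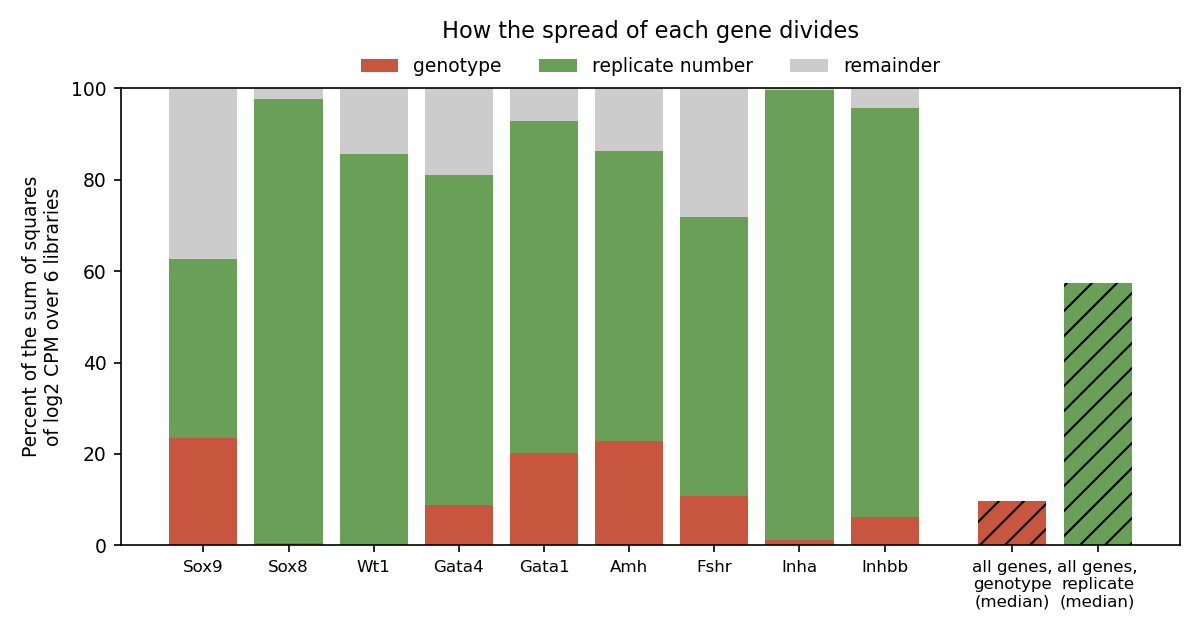
Share of the sum of squares of log2 CPM over the 6 libraries, in percent, that goes with genotype (red), replicate number (green) or neither (grey) for each of the 9 genes. Hatched bars give the medians over all tested genes, 9.63% for genotype and 57.3% for replicate number; the green part is largest for all 9 genes.

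Replicate 2 was most often the high library. Among the 9 genes, 7 (all but Sox9 and Gata1) were highest in replicate 2 within the knockout group and within the wild-type group, where 16.2% of all genes were. None was lowest in replicate 2 of each genotype, as 14.6% of all genes were. Wild-type replicate 2 was the highest of all 6 libraries for 8 of the 9, against 22.3% of all genes. The 9 levels come from the same 6 libraries and largely from the same cells, so these are not separate observations. Over the other libraries of its genotype, replicate 2 was higher on the log2 scale by 0.24 in knockout and 0.69 in wild type for Amh. The difference was 0.49 in knockout and 0.46 in wild type for Inha, and 0.12 in knockout and 0.45 in wild type for Gata4. Gata1 differed by -0.13 in knockout and -0.24 in wild type.

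Germ cell markers also differed between the numbers, and Leydig cell markers differed between single libraries. The 9 germ cell markers summed to 3006, 2415 and 2667 CPM in knockout replicates 1, 2 and 3 and to 3041, 2133 and 2532 CPM in the wild-type replicates, lowest in replicate 2 of each genotype. The synaptonemal complex gene Sycp3, which marks meiotic cells, had 351.25, 240.52 and 277.89 CPM in the knockout replicates and 366.16, 176 and 225.58 CPM in the wild-type replicates. The 7 Leydig cell markers summed to 362, 766 and 254 CPM in the knockout replicates and 340, 396 and 396 CPM in the wild-type replicates. The part of these cells in the Sertoli gene levels was not tested.

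Ratios between the 9 genes do not depend on how libraries are scaled to each other, and 5 ratios of raw counts were compared by exact two-sided permutation tests. With 3 libraries against 3 the smallest p is 0.1, so no ratio could pass. Fshr over Sox9 reached that smallest p. Its log2 ratio was -2.96, -2.87 and -2.88 in the knockout replicates and -3.0, -3.05 and -3.07 in the wild-type replicates, with no overlap and a difference of 0.137 (exact permutation p = 0.1, 0.5 after Benjamini-Hochberg adjustment over the 5). Amh over Sox9 was -0.15, 0.04 and -0.25 in knockout and 0.01, 0.38 and -0.18 in wild type. It was lower in 3 of 3 pairs, and the groups overlapped (exact permutation p = 0.5); without wild-type replicate 2 the difference was -0.032, against -0.185 with it. Gata1 over Gata4 was higher in 3 of 3 pairs, at -1.10, -1.61 and -1.60 in knockout and -1.29, -2.14 and -1.62 in wild type (exact permutation p = 0.4), and its difference of 0.249 was 0.019 without wild-type replicate 2. Sox8 over Sox9 and Inhbb over Inha had differences of 0.104 and -0.022 (exact permutation p = 0.5 and 0.9).

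Start-site sequence is shown for Inhbb and Sox8, which were each highest in replicate 2 of either genotype, and for Fshr, whose ratio to Sox9 did not overlap between genotypes. RefSeq windows on build GRCm38.p6 were at hand for 5 of the 9 genes. Each holds 250 bases before and 50 after the RefSeq start. For Inhbb and Sox8 that start is the gene's first base in the table and for Fshr it is 63 bases upstream, whereas the RefSeq starts of Inha and Gata1 lie 532 and 10161 bases inside the span in the table, and their windows are not printed. All are on the minus strand, at chr1:119422199-119422498 (Inhbb), chr17:25570637-25570936 (Sox8) and chr17:89200626-89200925 (Fshr). Capitals mark matches on either strand to the motifs below, and matches in these windows do not overlap.
Inhbb: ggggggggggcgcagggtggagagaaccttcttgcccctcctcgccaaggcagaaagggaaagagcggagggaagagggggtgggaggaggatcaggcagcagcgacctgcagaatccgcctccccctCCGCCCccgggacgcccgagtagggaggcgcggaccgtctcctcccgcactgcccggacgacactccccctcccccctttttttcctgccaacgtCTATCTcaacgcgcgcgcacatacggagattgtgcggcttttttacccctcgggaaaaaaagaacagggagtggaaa
Sox8: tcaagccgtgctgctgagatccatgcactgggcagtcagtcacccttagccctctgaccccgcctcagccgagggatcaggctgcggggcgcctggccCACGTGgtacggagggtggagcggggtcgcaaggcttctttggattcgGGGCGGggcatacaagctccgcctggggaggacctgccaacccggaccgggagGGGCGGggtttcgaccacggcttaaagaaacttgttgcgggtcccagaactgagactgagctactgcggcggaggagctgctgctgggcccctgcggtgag
Fshr: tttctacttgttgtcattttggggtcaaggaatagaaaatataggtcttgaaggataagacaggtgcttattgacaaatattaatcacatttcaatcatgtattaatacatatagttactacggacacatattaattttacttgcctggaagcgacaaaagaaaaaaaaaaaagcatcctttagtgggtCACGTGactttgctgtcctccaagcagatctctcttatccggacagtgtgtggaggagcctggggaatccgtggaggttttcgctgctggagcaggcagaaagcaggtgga

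The motifs searched included the GATA site in 4 spellings, AGATAA or else TGATAA, and with a final G AGATAG or else TGATAG. The others were the nuclear receptor site AGGTCA, the cAMP response elements TGACGTCA plus the variant TGCGTCA, the E-box CACGTG, the SOX site AACAAT and the GC box GGGCGG. Fshr held the E-box, which begins 61 bases before the RefSeq start. An E-box anywhere in the window occurs in 7.15% of all 32851 promoter windows. Sox8 held an E-box and 2 GC boxes, and Inhbb a GC box and a GATA site. GC boxes occur in 35.7% and any of the 4 GATA sites in 29.8% of all windows. A match here is a description of letters and says nothing of binding.

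Other genes of the Sertoli cell were followed in the same fit. Of 88 genes in 6 companion lists, 85 were tested and 0 passed in edgeR over all genes, with or without the block, against 0.0% and 0.0443% of all genes. Of all tested genes, 8618 were higher and 9422 lower in the knockout. Among 14 other Sertoli markers, 10 were higher and 4 lower in the knockout, with a median log2 fold change of 0.096. Their summed level was 9752, 10369 and 9340 CPM in the knockout replicates and 9598, 9850 and 8830 CPM in the wild-type replicates, each knockout library above the wild-type library of its number. Clu, which encodes the secreted chaperone clusterin, made up 42.3% to 45.8% of that sum. The 9 genes themselves summed the other way, to 1830, 2082 and 1748 CPM in the knockout replicates. In the wild-type replicates they summed to 1876, 2327 and 1772 CPM, each above the knockout library of its number. Of all genes, 13.9% were higher and 14.7% lower in the knockout in every pair. Without the block 0 of the 14 had an unadjusted p under 0.05, where 2.07% of all genes did. With the block 7 of the 14 did, where 7.48% of all genes did, and the edgeR adjusted p-values of these 7 were 0.303 to 0.659. The 5 on the higher side were Tsx, Cst9, Cst12, Defb36 and the barrier gene Cldn11, and the 2 on the lower side were the signalling genes Wnt6 and Dhh. These 7, and Clu, were singled out after their values were seen. All 14 were measured in the same 6 libraries, so the 7 are not separate observations. The block itself rests on a correlation in these data and not on the labels.

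Among these 14 markers, 5 were highest in wild-type replicate 2, Wnt6 and Hsd17b1 among them, where 22.3% of all genes were. Cst12 and Tsx were lowest there, Cst12 nearly level with wild-type replicate 3. Wnt6, a Wnt ligand gene, had 98.17, 117.26 and 103.53 CPM in the knockout and 107.49, 159.6 and 112.91 CPM in the wild-type replicates, (log2 fold change -0.25 ± 0.15). Hsd17b1, an enzyme of sex steroid conversion found in fetal Sertoli cells of the mouse, had 7.38, 8.79 and 7.66 CPM in knockout and 7.2, 21.55 and 9.18 CPM in wild type, with a log2 fold change of -0.67 ± 0.42. With wild-type replicate 2 left out, Wnt6 was at -0.051 and Hsd17b1 at -0.043. Cst12, a cystatin family gene, had 456.21, 491.72 and 454.59 CPM in knockout and 463.28, 411.5 and 412.63 CPM in wild type, with 0.12 ± 0.07.

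Genes of maturation and cell junctions showed no common direction, with 6 higher and 8 lower of 14 and a median of -0.003. The actin-bundling gene Espn of the Sertoli junctions had 202.26, 192.26 and 172.15 CPM in knockout and 201.62, 148.95 and 152.49 CPM in wild type (0.17 ± 0.12), and its log2 fold change was 0.326 without wild-type replicate 1 and 0.094 without wild-type replicate 2. Krt18, a keratin of immature Sertoli cells and of duct epithelium, had -1.80 ± 1.17 with 6.3 CPM in wild-type replicate 3, where the duct markers stood out, against at most 0.9 CPM in the knockout and 1.23 CPM in the other wild-type libraries. Without that library it was 0.041. Ncam1, an adhesion gene, had -0.33 ± 0.18 and was likewise highest in that library, without which it was -0.135.

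In the sex determination network 5 genes were higher and 11 lower of 16 tested, with a median of -0.035. The 3 with the smallest p were the homeobox genes Lhx9 (-0.33 ± 0.17), Six4 (-0.28 ± 0.15) and Emx2 (-1.33 ± 0.81). All 3 were highest in wild-type replicate 3. Without that library Emx2 was at -0.145, Lhx9 at -0.174 and Six4 at -0.192, and Lhx9 was -0.214 without knockout replicate 1. For Six4 the groups did not overlap, as for 3.5% of all genes in this direction, and its edgeR adjusted p with the block was 0.663. The median log2 ratio of the list was -0.04, -0.07 and -0.29 in pairs 1, 2 and 3. Of the other GATA family genes and their cofactors, 5 of 5 tested were lower, with a median of -0.190 and pair medians of -0.10, -0.07 and -0.44. Over all 18040 tested genes, 9422 were lower. Gata6 had -0.11 ± 0.08, Gata2 -0.19 ± 0.13 and the GATA4 cofactor gene Zfpm2 -0.28 ± 0.20. Leaving out wild-type replicate 3 gave -0.06 for Gata2 and -0.126 for Zfpm2, and leaving out wild-type replicate 2 gave -0.027 for Gata6. With knockout replicate 1 left out, Gata6 was at -0.069 and Zfpm2 at -0.159, and with wild-type replicate 1 left out Gata6 was at -0.167 and Zfpm2 at -0.475. Whether tissue of the ducts contributed to these lists was not tested.

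Receptors and transducers of AMH, inhibin and activin split into 6 higher and 12 lower of 18, with a median of -0.011. Amhr2, the AMH receptor gene, had 480.48, 487.92 and 424.18 CPM in the knockout and 477.81, 473.33 and 416.65 CPM in the wild-type replicates. Inhba, which encodes the inhibin beta A subunit, had 6.15, 8.79 and 6.8 CPM in knockout and 8.06, 14.69 and 9.37 CPM in wild type. It was lower in 3 of 3 pairs at -0.56 ± 0.23 (unadjusted p = 0.0392), and its edgeR adjusted p was 1 without and 0.194 with the block. The activin receptor gene Acvr1b had -0.17 ± 0.08 and the inhibitory transducer gene Smad7 -0.15 ± 0.12. Leaving out wild-type replicate 2 gave -0.265 for Inhba, -0.107 for Acvr1b and -0.003 for Smad7, and Smad7 was -0.091 with knockout replicate 1 left out and -0.251 with wild-type replicate 1 left out.

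Genes of the FSH receptor pathway, which runs through cyclic AMP, split into 8 higher and 10 lower of 18, with a median of -0.016. Pde4d, a phosphodiesterase gene that degrades cyclic AMP, had 11.34, 20.24 and 7.97 CPM in the knockout and 7.61, 7.83 and 6.63 CPM in the wild-type replicates. The groups did not overlap, as for 3.09% of all genes in this direction, and the log2 fold change was 0.84 ± 0.32 (unadjusted p = 0.035; edgeR adjusted p = 1 without and 0.532 with the block). Without knockout replicate 2 it was 0.401. Its highest library, knockout replicate 2, was also the one with the highest Leydig sum, and the part of Leydig cells in it was not tested. The adenylyl cyclase gene Adcy6 had -0.25 ± 0.11 (unadjusted p = 0.0475, edgeR adjusted p = 1), and the cyclic AMP response factor gene Crem 0.28 ± 0.19. Adcy6 was -0.163 with knockout replicate 1 left out and -0.167 with wild-type replicate 3 left out, and Crem 0.098 without knockout replicate 1 and 0.486 without knockout replicate 3.

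**Figure D4:**
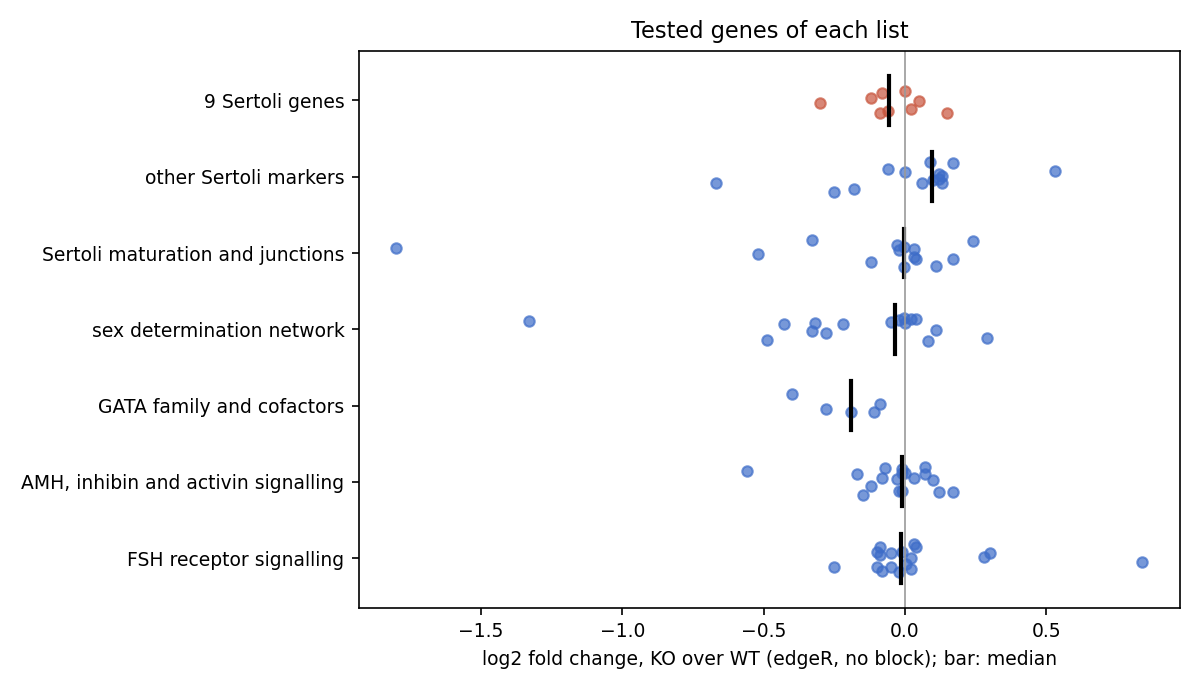
Log2 fold change, knockout over wild type, of each tested gene in the 9 Sertoli genes (red) and 6 companion lists (blue), in edgeR without the block; black bars are medians, and the vertical scatter of points has no meaning. Medians lie between -0.190 and 0.096, and no gene shown passed the test.

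The genes most like each of the 9 over the 6 libraries were found by the root mean square difference of log2 CPM after centring each gene. By that measure Cdkn2d, a cell cycle inhibitor gene, was closest to Gata1 at 0.0267, with 39.48, 32.6 and 32.39 CPM in the knockout and 35.63, 27.57 and 30.25 CPM in the wild-type replicates. The globin gene Hbb-bt was closest to Amh at 0.0451. The remaining matches were Vasp for Sox9 (0.0191), Tulp3 for Sox8 (0.0212), Gm26982 for Wt1 (0.00834), Dand5 for Gata4 (0.0173), Flad1 for Fshr (0.0159), Gm14448 for Inha (0.0394) and Hmgn3 for Inhbb (0.026). Some of these were low, with Gm14448 at 0.59 to 1.06 CPM, Gm26982 at 2.88 to 3.12 CPM and Dand5 at 5.37 to 7.61 CPM. Counting noise is larger at such levels, so these matches carry little weight. Among the 9 themselves, the closest pair was Wt1 and Fshr (0.0617), followed by Sox9 and Wt1 (0.0674) and by Sox8 and Inhbb (0.0685), each over 6 libraries. Genes with little spread score as close by this measure, whatever their pattern. The SD of log2 CPM over the libraries was 0.0505 for Wt1, 0.0872 for Fshr and 0.0963 for Sox9. It was 0.14 for Sox8 and 0.171 for Inhbb, whose distance was small beside their own spread. All these genes share libraries and depth, and the closest of 18040 genes was taken each time.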

How the data were processed

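RNA was extracted from whole testes and made into strand-specific libraries, per the labels' protocols. The authors deposited raw read counts per gene, made with bcl2fastq 2.19.1, GSNAP, featureCounts 1.6.0 and build mm10, per the submitters' processing notes. Neither strand setting, multi-mapped reads nor annotation release is described there. The table also gives summed exon length per gene, per the file headers. Of 49763 rows, 92 spike-in rows with 1 count in all were left out, and 49412 of 49671 gene identifiers matched GENCODE M21; the rest held 0.0193% of counts. Totals were 21014060 to 22706296 per library. Nothing says more of the libraries than 3 mice per genotype, so the tests set the genotype difference against the spread between these libraries. The parts of mice, litters and preparation in that spread cannot be told apart.

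From the counts, edgeR 4.0.16 in R 4.3.3 (filterByExpr, TMM, robust quasi-likelihood F test, genotype alone, Benjamini-Hochberg over 18040 genes, threshold 0.05) gave the tests, after the method was tested on simulated data. The simulated libraries had no shared replicate effect, so that run does not show how the method behaves with one. Log2 CPM used a prior count of 2. Intervals are at 95%. Ratios were tested with scipy 1.17.1. Alternatives were DESeq2 1.42.0, limma 3.58.1 (voom), other scalings and filters, left-out libraries and the replicate number as a block. Deviations from group means correlated at 0.42, 0.26 and 0.28 between same-numbered libraries, all over 0.1, so the numbers were taken to pair them; this is a hint from the data, since the labels name no shared litter or day. Replicates differed beyond counting noise (chi-square per degree of freedom 7.35 to 12.96). Named genes were the 9, the 3 with the smallest p in each companion list, the closest match of each of the 9, Ankrd31, and others said in the text to be chosen later or given as background (Sox10, Foxl2, Amhr2, Wt1os, Sycp3 and blood markers). The 9 genes and the lists were chosen with earlier results of these data known.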

Additional observations from a re-analysis of the deposited data

How the results depend on the processing

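The count among the 9 Sertoli genes was 0 under all 18 alternatives. In 13 of these no tested gene passed at all, so they could give no other count. Over all genes edgeR called 0 in the main setting (374 at an unadjusted p under 0.05), 8 with the replicate block, 63 with the block without pair 1, 57 without pair 2 and 0 without pair 3. DESeq2 called 2 (242 unadjusted), edgeR with no filter 1, limma voom 0 (373 unadjusted), and edgeR without any single library 0. The block changed no call among the 9 genes. Sox9, Amh and Gata1 kept their direction in all 18 alternatives, at -0.146 to -0.009, -0.44 to -0.037 and 0.032 to 0.232 on the log2 scale. Sox8 turned to -0.042 and Fshr to -0.007 with scaling to other Sertoli markers, which moved the median of all genes to -0.065, and Sox8 was -0.007 with the block without pair 3. Wt1, at about 0 throughout, was 0.003 with DESeq2 and with its size factors, 0.005 with no filter, 0.004 with a filter of 1 CPM, and 0.005 and 0.019 with the block without pairs 2 and 3. Gata4 was 0.004 with the block without pair 2. Leaving out single libraries gave -0.055 to 0.116 for Sox8, -0.024 to 0.033 for Wt1, -0.231 to 0.044 for Gata4, -0.228 to 0.111 for Inha, -0.165 to 0.051 for Inhbb and -2.352 to 0.041 for Krt18. Emx2 passed with the block without pair 2 (-1.717, edgeR adjusted p = 0.0215), but was -0.683 with the block without pair 3 (edgeR adjusted p = 0.949) and -0.145 without wild-type replicate 3; its adjusted p ran from 0.0215 to 1 over its 17 alternatives. Of the ratios, Inhbb over Inha ran from -0.135 to 0.062 without single libraries, and the other 4 kept their direction in 8 alternatives each; with same-numbered pairs the smallest p is 0.25, which Fshr over Sox9, Amh over Sox9 and Gata1 over Gata4 reached. The cause of these shifts was not tested. Krt18 and Emx2 have no value with the filter of 1 CPM. With 3 libraries a group, changes as small as those inside the intervals could not be told from none.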
